A study of Mus musculus with 6 samples.

Results

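The aryl hydrocarbon receptor (AHR) is a ligand-activated transcription factor of the bHLH-PAS family that waits in the cytosol with HSP90 and cochaperones, enters the nucleus when it binds a ligand, and pairs with ARNT on DNA elements with the core GCGTG. Its best-known targets are the Cyp1 genes, whose products are cytochrome P450 enzymes that oxidize polycyclic hydrocarbons and aromatic amines, together with Ahrr and Tiparp, which encode a repressor of the receptor and an ADP-ribosyltransferase that limits its activity. In liver, Cyp1a2 is made constitutively by hepatocytes, most strongly near the central vein, whereas Cyp1a1 is low until the receptor is activated. The genes described here are 7, chosen by name: Cyp1a1, Cyp1a2, Cyp1b1, Ahr, Ahrr, Arnt and Tiparp. All 7 were found by their versioned identifiers among the 55450 genes counted, and 5 of them passed the filter on low counts that left 17037 genes for testing.

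Hepatocytes were isolated by 2-step collagenase perfusion from C57BL/6 mice on normal diet, and RNA of 3 preparations per time point was sequenced in bulk. The 0 h group holds hepatocytes of undamaged liver, and the 48 h group hepatocytes taken 48 h after partial hepatectomy (PHx), an operation that removes most of the liver mass. The labels give an age of 10 to 12 weeks, the study's methods a somewhat younger age, male sex and the substrain C57BL/6J. No sham-operated animals are among these libraries, so surgery and regeneration cannot be told apart, and in bulk RNA neither can fewer cells of a type and less RNA per cell.

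The libraries held 31419443 to 36346220 reads assigned to genes. A floor of 3 counts per library equals 0.0825 to 0.0955 CPM (counts scaled to a common library size of 1e6) and covers counting error alone. Levels below are CPM scaled by TMM factors, and differences were tested with edgeR's quasi-likelihood test, adjusted over all genes tested. Of the 10 hepatocyte markers examined, Alb among them, all were present and 4 were called lower, with a summed share of gene counts of 9.27% to 11.1% at 0 h and 6.94% to 7.48% at 48 h. The mean share fell by 2.86 percentage points, and by 0.67 with Alb left out. The leukocyte list (10 genes, Mpo at 0 in every library) took at most 0.000475% of the counts of any library. Most of these counts were of Ptprc, at 73 to 122 per library. The 10 sinusoidal endothelial markers took 0.0239% to 0.0372% at 0 h and 0.0188% to 0.0226% at 48 h, and the 10 Kupffer cell markers 0.00761% to 0.0114% and 0.0120% to 0.0158%. In these shares neither list overlapped between 0 h and 48 h (p = 0.1 by a two-sided exact permutation test, the lowest value possible with 3 libraries against 3). In summed TMM CPM the Kupffer cell list did overlap, at 81.5 to 122.3 at 0 h and 117.6 to 144 at 48 h. Over all genes tested edgeR called 21.4% higher and 19.3% lower. All 10 endothelial genes were called lower with all libraries, 7 with library size only and 6 without replicate 3 at 0 h. Among the Kupffer cell genes 3 were called higher and 0 lower (1 lower without replicate 1 at 0 h); the part of these cells in the rises of Ahr and Cyp1a1 was not tested. Of the stellate cell markers 1 was higher and 2 were lower (5 without replicate 1 at 0 h), and the 10 together took 0.0116% to 0.0183% at 0 h and 0.00901% to 0.0121% at 48 h. The 6 cholangiocyte markers, with 1 of 2 tested genes higher (0 without replicate 2 or 3 at 0 h or replicate 3 at 48 h), took 0.000891% to 0.00195% and 0.00181% to 0.00289%, of which Krt7, Krt19 and Epcam held at most 4 counts in any library. One library stood apart for the Cyp1 genes, replicate 3 at 48 h, and results that rest on it are given with and without it.

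Cyp1a1 and Cyp1a2 are neighbours on chromosome 9 that are transcribed away from each other, with RefSeq starts 13958 bases apart. Cyp1a1 (ENSMUSG00000032315.6) lies on the plus strand at chr9:57687928-57703824 and Cyp1a2 (ENSMUSG00000032310.4) on the minus strand at chr9:57676937-57683703 (GRCm38, GENCODE M21). The 250 bases before the RefSeq start of both genes, and of Ahrr, are shown because these are the members with the largest spread among libraries and the member with the most matches to the response element core. Sequences are from RefSeq on GRCm38.p6, in the direction of transcription, with each GCGTG, or its reverse complement CACGC, in capitals.
Cyp1a1, chr9:57697363-57697612, plus strand: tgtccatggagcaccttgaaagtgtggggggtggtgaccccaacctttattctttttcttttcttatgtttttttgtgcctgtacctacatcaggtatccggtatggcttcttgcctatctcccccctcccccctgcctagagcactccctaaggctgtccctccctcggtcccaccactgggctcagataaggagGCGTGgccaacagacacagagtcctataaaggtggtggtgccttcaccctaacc
Cyp1a2, chr9:57683656-57683905, minus strand: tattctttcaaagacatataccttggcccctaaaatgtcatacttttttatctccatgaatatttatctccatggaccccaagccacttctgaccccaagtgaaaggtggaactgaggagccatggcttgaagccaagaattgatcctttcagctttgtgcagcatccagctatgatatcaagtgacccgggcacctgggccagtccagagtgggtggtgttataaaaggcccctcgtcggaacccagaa
Ahrr, chr13:74292332-74292581, minus strand: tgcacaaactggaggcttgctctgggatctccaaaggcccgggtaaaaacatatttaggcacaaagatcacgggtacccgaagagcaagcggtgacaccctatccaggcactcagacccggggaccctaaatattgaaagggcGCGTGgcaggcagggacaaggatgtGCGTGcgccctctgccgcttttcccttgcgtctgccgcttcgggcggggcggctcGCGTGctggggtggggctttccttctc
The Cyp1a1 window held 1 match, beginning 54 bases before the start, the Cyp1a2 window held none, and the Ahrr window held 3, beginning 107, 82 and 27 bases before it. The windows of Cyp1b1, Arnt and Tiparp held 1 match each, and a promoter of Ahr was not analysed here. GCGTG on either strand was present in 28.2% of the 32851 promoter windows of the same length, and the longer form TNGCGTG, which overlaps it, in 4.1%. Among the 6 windows of these genes the longer form had 1 match, in Ahrr. Such matches describe letters in a short window, and the sequence further upstream was not used here.

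The mRNA of the receptor itself was higher at 48 h. Ahr (ENSMUSG00000019256.17; chr12:35497974-35535038, minus strand) stood at 53.6, 47.0 and 52.4 CPM in the 3 libraries of undamaged liver and at 122.4, 96.6 and 83.1 CPM at 48 h after PHx. Every library at 48 h lay above every library at 0 h. The rise was 1.98-fold (log2 fold change 0.98, standard error 0.144, adjusted p = 0.000395 in edgeR's quasi-likelihood test, 95% interval of the fold 1.58 to 2.46). The log2 fold change of Ahr ranged from 0.82 to 1.18 over 14 alternatives, all with an adjusted p of at most 0.00255 in the tool concerned. A gene on the opposite strand, Gm48236, overlaps 2.06% of the exon bases of Ahr, and whether the counting used strand is not given in the sources used here.

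Arnt, the DNA-binding partner of AHR and of the hypoxia-inducible factors, did not pass the test. Arnt (ENSMUSG00000015522.18; chr3:95434388-95497240, plus strand) stood at 81.3, 67.7 and 77.0 CPM at 0 h and at 63.0, 72.3 and 69.5 CPM at 48 h. The time points overlapped (log2 fold change -0.14, standard error 0.11, edgeR adjusted p = 0.336), with a 95% interval of the fold from 0.765 to 1.07. With library size in place of TMM the log2 fold change of Arnt was 0.06, so its sign is not settled.

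Since Ahr and Arnt were counted in the same libraries, their ratio needs no normalization between libraries. Per kilobase of exon, Ahr stood at 0.857, 0.901 and 0.884 times Arnt in the libraries of undamaged liver. At 48 h this ratio was 2.52, 1.74 and 1.55. Ahr thus lay below Arnt in each library at 0 h and above it in each library at 48 h. On the log2 scale of counts the ratio rose by 1.11 (from a mean of -0.56 to 0.54; exact permutation p = 0.1, two-sided).

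The 2 genes of feedback on the receptor differed in level. Tiparp (ENSMUSG00000034640.9; chr3:65528410-65555518, plus strand) stood at 3.95, 3.42 and 4.43 CPM at 0 h and at 5.80, 4.59 and 4.20 CPM at 48 h. The lowest library at 48 h lay within the range at 0 h, and the gene did not pass the test (log2 fold change 0.30, standard error 0.189, edgeR adjusted p = 0.228; 95% interval of the fold 0.923 to 1.65). With library size only, the scaling that moved the median of all genes by 0.20, Tiparp passed at a log2 fold change of 0.50 and an edgeR adjusted p of 0.0433. Relative to Ahr in the same library, Tiparp was lower at 48 h in each library, with counts at 7.28% to 8.46% of those of Ahr at 0 h and at 4.74% to 5.06% at 48 h (mean log2 ratio -3.70 at 0 h and -4.36 at 48 h; two-sided exact permutation p = 0.1). A gene on the opposite strand, 4931440P22Rik, overlaps 5.12% of the exon bases of Tiparp.

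Ahrr (ENSMUSG00000021575.16; chr13:74211118-74292331, minus strand), the repressor that competes for ARNT, had 3, 6 and 1 counts at 0 h and 3, 3 and 2 counts at 48 h. Its sums over the groups were 10 and 8 counts in libraries of 31419443 or more, and the gene did not pass the filter on low counts, so its level was not tested. The log2 ratio of Ahrr to Ahr averaged -8.93 with an SD of 1.19 in undamaged liver and -10.11 with an SD of 0.142 after PHx, with overlapping libraries (exact permutation p = 0.2, two-sided).

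**Figure D1:**
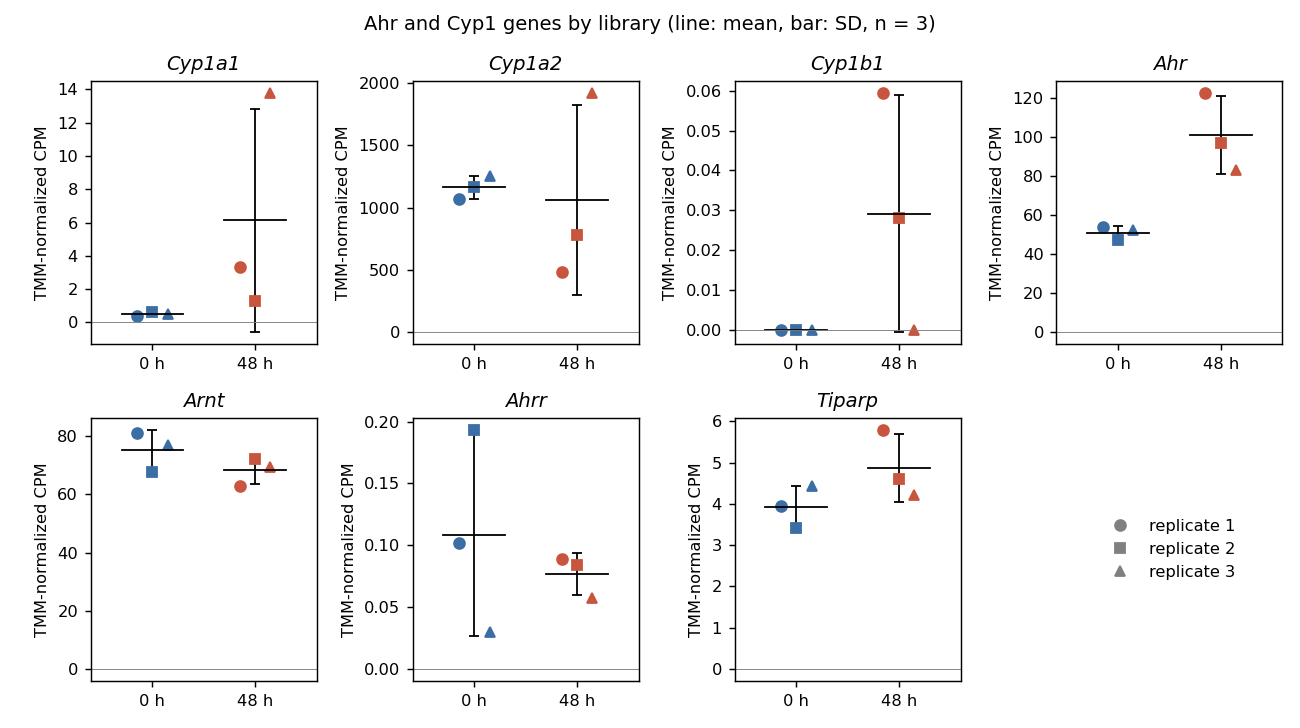
Levels of the 7 genes in TMM-normalized CPM (linear vertical axes, each gene on its own scale) at 0 h (blue) and 48 h (red), with a symbol per replicate number, a line at the mean and a bar of 1 SD (n = 3). Ahr at 48 h lies at 83.1 to 122.4 CPM, above the 47.0 to 53.6 CPM of 0 h, while Cyp1a1 and Cyp1a2 spread widely at 48 h and Cyp1b1 and Ahrr stay at or near 0.

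Of the P450 genes, Cyp1a1, the classical induced target that oxidizes polycyclic hydrocarbons, was higher at 48 h, from a very low level. It had 12, 20 and 16 counts in the libraries of undamaged liver and 112, 45 and 482 counts at 48 h. In CPM these are 0.409, 0.645 and 0.482 against 3.33, 1.26 and 13.8. The time points did not overlap, but the libraries at 48 h differed among themselves by 10.9-fold between the lowest and the highest. Cyp1a1 rose by a log2 fold change of 3.57 (standard error 0.781, edgeR adjusted p = 0.00448), or 11.9-fold with a 95% interval from 3.57 to 39.4. Without replicate 3 at 48 h the log2 fold change fell to 2.15, with an edgeR adjusted p of 0.00364.

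Cyp1a2, the constitutive hepatic enzyme that metabolizes caffeine and activates aromatic amines, was the most abundant of the 7 genes and had no settled direction. It stood at 1069, 1161 and 1254 CPM at 0 h and at 481, 780 and 1918 CPM at 48 h. Replicates 1 and 2 at 48 h lay below all libraries of undamaged liver, and replicate 3 lay above all of them. With all libraries the log2 fold change was -0.13 (standard error 0.391, edgeR adjusted p = 0.811), and the 95% interval of the fold ran from 0.50 to 1.67. Without replicate 3 at 48 h it was -0.88 (edgeR adjusted p = 0.00984), and without replicate 1 or replicate 2 at 48 h it was 0.21 or 0.04. A single library thus decides whether Cyp1a2 is called lower.

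The spread at 48 h was wider for Cyp1a1 and Cyp1a2 than for Ahr, Tiparp and Arnt. The highest library at 48 h was 3.99 times the lowest for Cyp1a2, 1.47 times for Ahr, 1.15 times for Arnt and 1.38 times for Tiparp. Without replicate 3 the Cyp1a genes spread less, with replicates 1 and 2 at 481 and 780 CPM for Cyp1a2 and at 3.33 and 1.26 CPM for Cyp1a1. Over the 13332 genes that averaged 1 CPM or more, the median ratio of the highest to the lowest library at 48 h was 1.22. Of these genes 0.615% spread as widely as Cyp1a2 or more, against 0.09% for Cyp1a1. The same share was 19.7% for Ahr, 26.7% for Tiparp and 67.75% for Arnt. At 0 h the ratio of the highest to the lowest library was 1.17 for Cyp1a2, below the median of 1.28. For Cyp1a1 it was 1.58, above that median, with 18.2% of genes as wide. The order of the libraries at 48 h was not shared: replicate 3 was the highest for both Cyp1a genes and the lowest for Ahr, and replicate 1 was the lowest for Cyp1a2 and the highest for Ahr.

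Relative to its neighbour Cyp1a2 in the same library, Cyp1a1 was also higher at 48 h. Its counts were 0.0382%, 0.0556% and 0.0385% of those of Cyp1a2 at 0 h, and 0.692%, 0.162% and 0.718% at 48 h. The log2 ratio of Cyp1a1 to Cyp1a2 rose by 3.27 (exact permutation p = 0.1, two-sided), with no overlap between the time points. Of the 50-base windows in annotated Cyp1a1 transcripts 3.43% also occur in Cyp1a2, and reads from them could have been lost or shared by the counting. Their part in these counts was not tested.

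**Figure D2:**
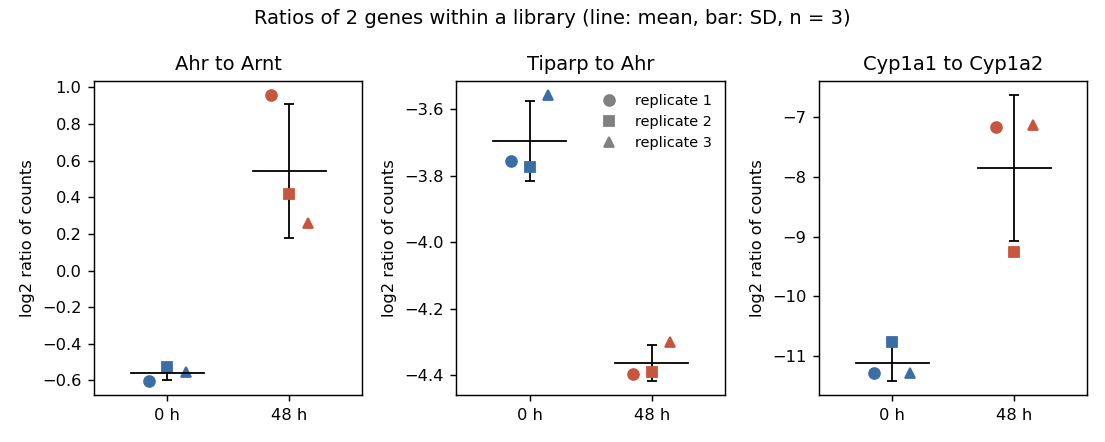
Log2 ratio of the counts of 2 genes within each library at 0 h (blue) and 48 h (red), with a symbol per replicate number, a line at the mean and a bar of 1 SD (n = 3). Ahr to Arnt and Cyp1a1 to Cyp1a2 are higher and Tiparp to Ahr is lower at 48 h, without overlap between the time points.

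Cyp1b1 (ENSMUSG00000024087.4; chr17:79701537-79715061, minus strand), the mainly extrahepatic member of the family, had 0 counts in each library of undamaged liver and 2, 1 and 0 counts at 48 h. Each library at 48 h lay below the floor of 3 counts, so no fold is given.

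**Figure D3:**
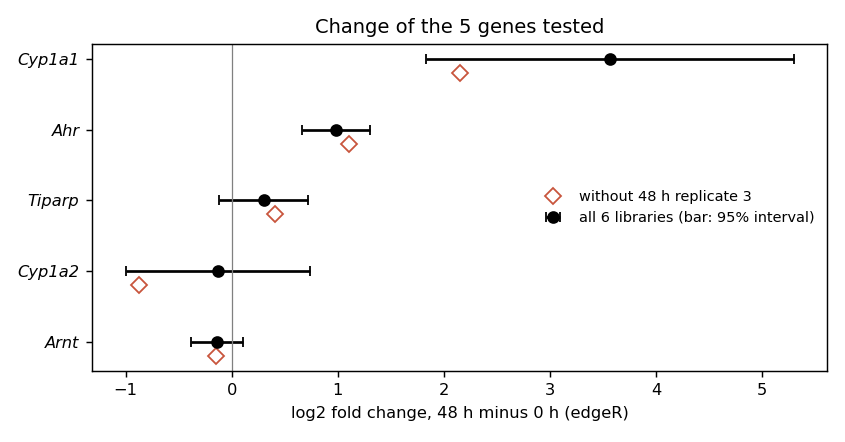
Log2 fold change (48 h minus 0 h) of the 5 genes tested, with the 95% interval from edgeR's quasi-likelihood fit of all 6 libraries (black) and the value without replicate 3 at 48 h (open diamonds). The intervals of Cyp1a1 and Ahr lie above 0, and Cyp1a2 moves from -0.13 to -0.88 without that library.

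Compared per kilobase of exon, so that genes of different length can be ordered, Cyp1a2 stood at 576.9 ± 45.7 (SD, n = 3) CPM per kilobase at 0 h, 69.8 times Ahr. Arnt (9.41 ± 0.867) and Ahr (8.27 ± 0.572) followed with overlapping libraries, then Tiparp (0.903 ± 0.116), Cyp1a1 (0.184 ± 0.0434), Ahrr and Cyp1b1. At 48 h the order was Cyp1a2 (526.4 ± 376.8), Ahr (16.3 ± 3.24), Arnt (8.53 ± 0.595), Cyp1a1 (2.20 ± 2.41) and Tiparp (1.12 ± 0.191), each with n = 3. The libraries of Cyp1a1 and Tiparp overlapped at 48 h, as did those of Ahrr and Cyp1b1. Without replicate 3 at 48 h, Tiparp (1.19) stood above Cyp1a1 (0.823), and Cyp1a2 averaged 313.1 CPM per kilobase. On this scale Cyp1a2 was 3620, 2492 and 3600 times Cyp1a1 in the libraries of undamaged liver and 200, 856.9 and 192.7 times at 48 h.

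In all, 2 of the 5 genes tested, Ahr and Cyp1a1, were called higher after PHx and 0 were called lower by edgeR (0 also at an unadjusted p under 0.05), and DESeq2 and limma-voom made the same 2 calls. Of all genes tested, 40.7% were called, 21.4% higher and 19.3% lower, so being called is common in this comparison. The groups did not overlap for 52.7% of all genes tested and for 2 of these 5. With library size only the split of calls was 5309 higher and 2108 lower genes, against 3638 and 3288 with TMM.

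Genes that hold AHR in its cytosolic complex or mark it for degradation were mostly higher. Of 8 tested, 5 rose and none fell, where 21.4% of all genes tested rose and 19.3% fell, with a median log2 fold change of 0.47 against -0.00 over all genes tested. Hsp90aa1, the inducible HSP90 isoform, rose from 83.0 ± 17.6 to 143.7 ± 13.1 CPM (SD, n = 3; edgeR adjusted p = 0.00221). Src, a kinase of the complex, rose by 1.03 on the log2 scale and Ddb1, a ubiquitin ligase subunit, by 0.50 (edgeR adjusted p = 0.0134 and 0.0114). Hsp90ab1, the constitutive and more abundant isoform, had a log2 fold change of -0.11 (edgeR adjusted p = 0.629), which was 0.10 with library size only. The call of Src was lost without replicate 3 at 0 h or replicate 1 at 48 h. Among 11 coregulators of the AHR-ARNT dimer, 1 was higher (Rb1, log2 fold change 0.33) and 1 lower (Ncoa3, -0.48), or 18.2% called against 40.7% of all genes tested, and neither call held in all alternatives.

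Other genes known to be induced through AHR moved in both directions. Of the 20 listed, 16 were tested, 6 were higher and 3 lower, where 21.4% and 19.3% of all genes tested were, and all 9 calls held in each alternative that tested the gene. Their median log2 fold change was 0.17. Nqo1, a quinone reductase that NRF2 also induces, stood at 2.96, 2.45 and 3.95 CPM at 0 h and at 6.60, 9.43 and 5.29 CPM at 48 h. It rose by 1.18 on the log2 scale (edgeR adjusted p = 0.00363), and Nfe2l2, which encodes NRF2, by 0.71 (edgeR adjusted p = 0.000595). Fmo2, a flavin monooxygenase, rose by 1.46 and Gsta1, a glutathione transferase at 0.316 ± 0.149 CPM (SD, n = 3) in undamaged liver, by 2.37 (edgeR adjusted p = 0.013 and 0.000427). Gsta1 had 8, 6 and 16 counts at 0 h and passed the filter on low counts through its libraries at 48 h.

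Lower at 48 h were Gsta2, Ugt1a6b and Selenbp1. Gsta2, the paralog of Gsta1, fell by 1.71 on the log2 scale (edgeR adjusted p = 0.00405). Ugt1a6b, a glucuronosyltransferase, fell from 61.2 ± 2.32 to 31.6 ± 2.83 CPM (SD, n = 3; edgeR adjusted p = 5.59e-05), while Ugt1a6a had a log2 fold change of -0.04 (edgeR adjusted p = 0.857). Selenbp1, a selenium-binding protein gene, fell by 0.72 (edgeR adjusted p = 0.00787). Gsta1 and Gsta2 share 46.6% of the 50-base windows of Gsta1, and Ugt1a6a and Ugt1a6b share 42.2% of those of Ugt1a6a and 79.6% of those of Ugt1a6b, so their counts are uncertain. Aldh3a1, a classical target outside the liver, had 1 count in all 6 libraries together.

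The kynurenine pathway, which degrades tryptophan and yields ligands of the receptor, had more decreases than increases. Of 12 genes tested, 6 fell and 2 rose (over all genes tested, 19.3% fell and 21.4% rose), with a median log2 fold change of -0.55. Tdo2, the hepatic dioxygenase at its entry, stood at 770.7, 658.2 and 750.3 CPM at 0 h and at 204.7, 204.2 and 257.2 CPM at 48 h. It fell by 1.71 on the log2 scale (standard error 0.145, edgeR adjusted p = 1.01e-05). Afmid, which acts at the next step, and Ido2 fell by 1.65 and 1.51 (edgeR adjusted p = 7.32e-05 and 3.81e-05). The increases were in Acmsd, which diverts the pathway from NAD synthesis (log2 fold change 1.74, edgeR adjusted p = 0.000468), and Kmo, which hydroxylates kynurenine (0.58, edgeR adjusted p = 0.00636). Ido1 had 0 counts in every library. The call of Kyat1, a decrease, was lost with library size only and without replicate 1 or 3 at 0 h or replicate 2 or 3 at 48 h.

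**Figure D4:**
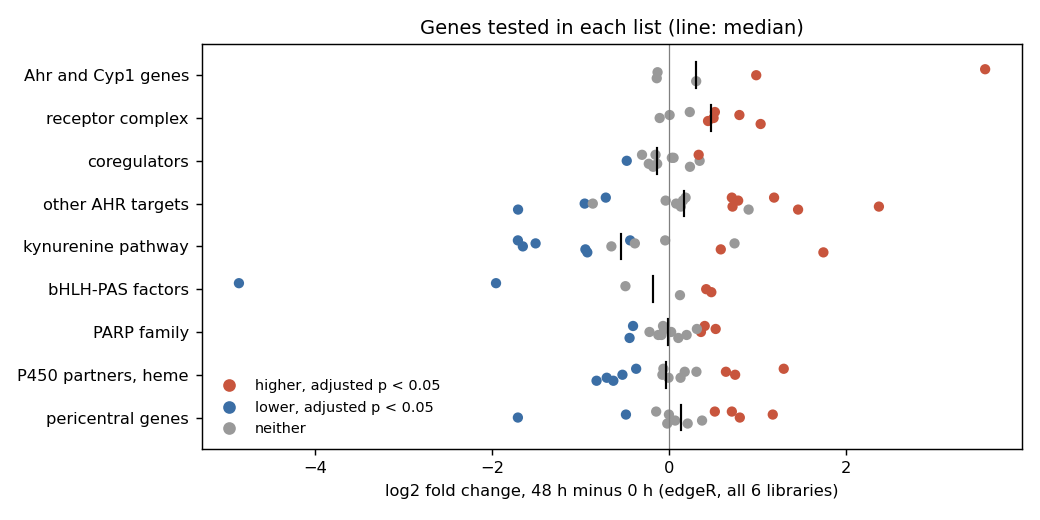
Log2 fold change (48 h minus 0 h, edgeR, all 6 libraries) of each gene tested in 9 lists, coloured by call at an adjusted p under 0.05, with a line at the median of the list. The receptor complex list has its median at 0.47 and the kynurenine list at -0.55.

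Among other bHLH-PAS factors, 6 of 13 were tested, 2 rose and 2 fell, and 40.7% of all genes tested were called in either direction. Npas2 and Arntl, partners in the circadian clock, fell by 4.86 and 1.96 on the log2 scale (edgeR adjusted p = 2.31e-05 and 0.000989). Npas2 stood at 19.9, 7.64 and 18.9 CPM at 0 h and at 0.892, 0.224 and 0.486 CPM at 48 h. Epas1 and Hif1a, which encode hypoxia-inducible factors that pair with ARNT, rose by 0.48 and 0.42 (edgeR adjusted p = 0.0142 and 0.0347), and the call of Hif1a was lost in 6 of 14 alternatives. The hour of the day at which livers were taken is not given in the sources used here. Of the 14 other PARP family genes, relatives of Tiparp, 3 rose and 2 fell (the largest changes were 0.52 in Parp2 and -0.45 in Parp6), and none of these 5 calls held in all alternatives. Of the PARP genes 1 was called higher without replicate 1 or 2 at 48 h, 0 were called lower without replicate 1 at 48 h, and 1 was called lower without any 1 library of 0 h or replicate 3 at 48 h. Their 5 calls among 14 genes are a share below that of all genes tested.

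Partners of the P450 enzymes were called in both directions. Por, the reductase that passes electrons to all microsomal P450s, stood at 236.4, 307.9 and 339.7 CPM at 0 h and at 666.8, 837.4 and 662.4 CPM at 48 h. It rose by 1.29 on the log2 scale (standard error 0.169, edgeR adjusted p = 0.000186). Alad and Alas1, of which Alas1 encodes the rate-limiting enzyme of hepatic heme synthesis, rose by 0.74 and 0.64 (edgeR adjusted p = 0.000666 and 0.00873). Pgrmc1, a heme-binding partner of P450s, Cyb5r3, a reductase of cytochrome b5, and Uros, a heme synthesis enzyme, fell by 0.82, 0.71 and 0.63 (edgeR adjusted p = 0.00142, 0.00564 and 0.0032). In total 3 of the 14 genes were higher and 5 lower, where 21.4% and 19.3% of all genes were, and the split turned to 5 and 3 under library size only. Without replicate 3 at 0 h, replicate 1 at 48 h or replicate 2 at 48 h, 3 were lower, and the calls lost somewhere were those of Cyb5b and Pgrmc2.

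Pericentral genes, which share the zone of Cyp1a2, did not move together either. Of 12 tested, 4 rose and 2 fell (21.4% and 19.3% of all genes tested did), with a median log2 fold change of 0.14. Cyp2e1, the most abundant of them, stood at 5961, 7414 and 6343 CPM at 0 h and at 1573, 2282 and 2171 CPM at 48 h, without overlap, and fell by 1.71 on the log2 scale (edgeR adjusted p = 6.85e-05). At 48 h its replicate 1 was the lowest, as for Cyp1a2, and its replicate 2 the highest. Oat, Tbx3 and Axin2 rose by 1.17, 0.80 and 0.71 (edgeR adjusted p = 0.000241, 0.000846 and 0.00364), and Glul, the glutamine synthetase gene of the cells around the central vein, by 0.51 (edgeR adjusted p = 0.0254). The call of Glul was lost without replicate 2 at 0 h and without replicate 2 or 3 at 48 h.

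The genes whose profile over the 6 libraries was nearest to each member were found by the root mean square difference of log2(CPM + 0.1), centred on each gene's own mean. For Ahr these were Fosl2, Serpina10 and Spidr, at distances of 0.040, 0.046 and 0.0578 on the log2 scale. Fosl2, an AP-1 subunit gene, stood at 22.7, 20.5 and 22.4 CPM at 0 h and at 51.7, 43.9 and 34.7 CPM at 48 h, in the same order as Ahr. For Cyp1a2 they were Chrna2, Tsga10 and Gm826, at 0.251, 0.274 and 0.305. Chrna2, a nicotinic receptor subunit gene, stood at 9.91, 9.03 and 9.53 CPM at 0 h and at 2.70, 7.47 and 13.1 CPM at 48 h, so the lowest and the highest libraries were those of Cyp1a2. For Cyp1a1 the nearest genes, Cyp21a1, Slc8a1 and Gstp2, were farther away, at 0.696 to 0.819. Those of Arnt (Anxa11, Vegfb and Exoc7) and of Tiparp (Pgd, Ralb and Tox) lay within 0.056. The 6 libraries carry 2 time points, so a difference between these is enough to bring profiles close.

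**Figure D5:**
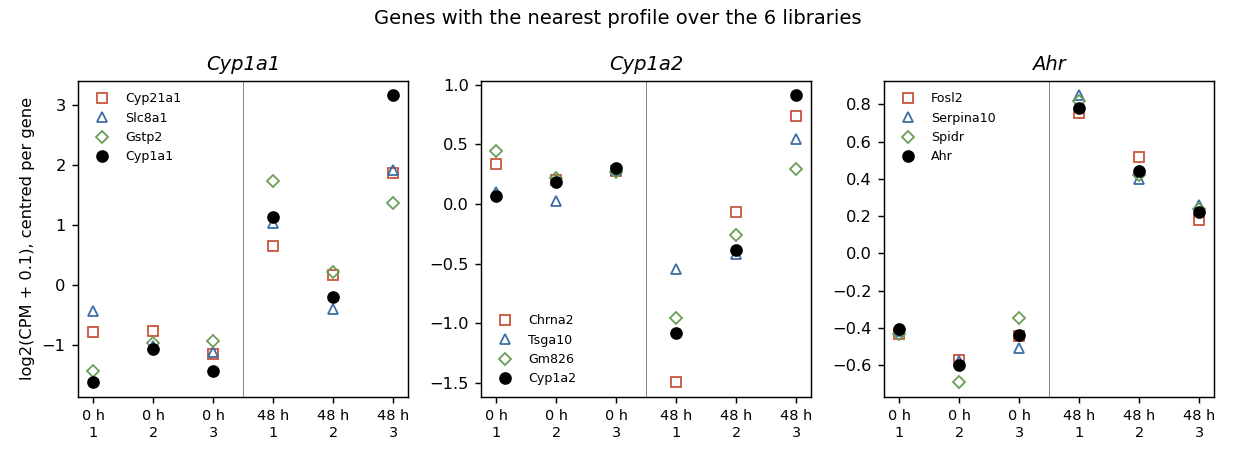
Profiles of Cyp1a1, Cyp1a2 and Ahr (filled circles) and of the 3 genes nearest to each (open symbols) over the 6 libraries, as log2(CPM + 0.1) centred on each gene's mean. Replicate 3 at 48 h is the highest library for Cyp1a1, Cyp1a2 and Chrna2, and the Ahr panel shows its 3 nearest genes on top of it.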

How the data were processed

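Reads per gene were deposited by the authors as raw counts, 1 file per library, in the layout of htseq-count. The submitters' processing notes name FastQC 0.11.5, Trim Galore 0.6.4, STAR 2.6, HTSeq 0.12.4 and DESeq2 with build mm10. The counting mode and strand setting are not given in the sources used here. All gene identifiers were those of GENCODE M21. Lines that name no gene were left out: reads on no gene made up 24.3% to 32.7% of each file and ambiguous reads 4.27% to 5.29%, and the line for multiply aligned reads held 0.

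Samples were grouped by their titles. From these counts, edgeR 4.0.16 (R 4.3.3; TMM, glmQLFit and glmQLFTest, time as the only term) was run on genes reaching 10 counts in 3 or more libraries, with Benjamini-Hochberg adjustment over all of them. A gene was called at an adjusted p under 0.05. The standard error is the log2 fold change divided by the root of the F statistic. The function was tested on simulated data first. Ratios had 0.5 added to each count. Alternatives were DESeq2 1.42.0, limma-voom (limma 3.58.1), 3 other scalings, 2 other filters, the replicate number as a block and leaving out each library.

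The members, gene lists (Ahr and Cyp1 genes, receptor complex, coregulators, other AHR targets, kynurenine pathway, bHLH-PAS, PARP, P450 partners, pericentral genes and cell type markers) and tests were chosen with earlier results of these data known. Genes named are all members, up to 3 increases and 3 decreases with the largest change per list among genes of at least 1 CPM, 15 genes set by name, and the 3 nearest profiles per member. Libraries of the same time differed beyond sampling noise (chi-square per gene at least 25.8 in each pair), so each was counted as a sample. P-values measure the spread between these preparations. Some genes of these lists are counted in them but not reported here by name.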

Additional observations from a re-analysis of the deposited data

How the results depend on the processing

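The calls of Ahr and Cyp1a1 held in all 14 alternatives, with log2 fold changes of 0.82 to 1.18 and of 2.15 to 4.05. Without TMM factors (library size only), the genes called lower went from 3288 to 2108, Cyp1a2 turned to a log2 fold change of 0.0931 and Arnt to 0.0644, and the share of higher genes among all calls went from 52.5% to 71.6%. This scaling moves the median of all genes by 0.20, more than the changes of Cyp1a2 and Arnt. Leaving out each library in turn gave 2 members higher throughout and 0 to 1 lower, the 1 being Cyp1a2 without replicate 3 at 48 h. The log2 fold change of Cyp1a2 ran from -0.88 to 0.21 in these fits and turned positive without replicate 1 (0.21) or replicate 2 (0.04) at 48 h. Over all genes, leaving out a library gave 2649 to 3395 higher and 2540 to 3166 lower genes. The replicate numbers are not shared animals, and the deviations of same-numbered libraries correlated at 0.036, -0.093 and -0.166. With the replicate block, 3237 genes were higher and 2884 lower, 2 members were higher and 0 lower, Cyp1a1 had a log2 fold change of 3.08 and Cyp1a2 of -0.38. Among list calls, the block ended those of Rb1 and Pgrmc2. The ratios within a library kept their direction without each library, with the block and with 5 added to each count. Ahrr and Cyp1b1, at 0 to 6 counts per library, did not pass the filter on low counts. Where no cause is named, the cause was not tested.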

Other observations

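Cyp2a5, a coumarin-oxidizing P450 gene on the list of AHR targets, also varied widely at 48 h after PHx. It stood at 443.9, 513.1 and 789.1 CPM at 0 h and at 92.4, 327.8 and 539.3 CPM at 48 h, so that replicate 1 was the lowest and replicate 3 the highest, as for Cyp1a2. With all libraries its log2 fold change was -0.86 (edgeR adjusted p = 0.176), and without replicate 3 at 48 h it was -1.47 with an edgeR adjusted p of 0.0272. It was called lower as well without a filter on low counts and with the replicate block. This gene was singled out after its values were seen.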
